A study of Mus musculus with 2 samples.

Results

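Primary cultures of mouse fat stroma held mesenchymal cells rich in interferon-induced transcripts. They were taken at a fixed share from both inguinal white adipose tissue (iWAT, a subcutaneous depot) and interscapular brown adipose tissue (iBAT). Their rarity and their presence in both libraries follow from that fixed share. Members were the 1% of mesenchymal cells of a library in which Ifit1, Ifit3 and Mx1, antiviral genes induced by interferon, made up the largest share of the UMIs (unique molecular identifiers, each marking 1 captured RNA molecule). A cell counted as mesenchymal with at least 1 UMI of Pdgfra, a growth factor receptor of fibroblasts and adipocyte precursors, and with 0 UMIs of Epcam (epithelium), Ptprc (leukocytes), Pecam1 (endothelium) and Sox10 (glia). This gave 152 members among 15196 mesenchymal cells and 29962 barcodes of iWAT, and 243 among 24305 mesenchymal cells and 28636 barcodes of iBAT. Together they were 395 of 58598 barcodes. The libraries shared 8 barcodes, 0 of them among the members.

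The cells came from the stromal vascular fraction of wild-type C57BL/6N mice, 8 to 12 weeks old per the labels, with tissue of several animals pooled. The labels list 4 treatments of cultures at 80% confluency, namely none, FGF1, FGF2 and FGF8, with each growth factor given at 5.5 nM over 48 h. Tagged cells of all treatments were merged into 1 library per depot. The study's methods name vehicle, FGF1 and FGF2 only. The tag of a cell was not used here, so members of all treatments stand together and no treatment was compared with another. Depot and library cannot be told apart. With 1 library per depot, and with members chosen from the expression values themselves, no test was made. Every ratio below describes these cells, with 95% intervals that cover counting error only.

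Interferons are cytokines released after a cell senses foreign nucleic acid. Type I interferons bind the receptor made of Ifnar1 and Ifnar2, whose kinases Jak1 and Tyk2 activate transcription factors, among them Stat2. With Irf9 these form a complex that binds the interferon-stimulated response element (ISRE) in promoters and turns on genes that block viral replication, sense more nucleic acid and display peptides on MHC class I. Interferon gamma acts through another element, the gamma-activated site (GAS). Fibroblasts and adipocyte precursors carry both kinds of receptor.

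The values that chose the members are given as a description. In iWAT the 3 genes made up 8.85 to 96.1 UMIs per 10000 UMIs of a member, with a median of 12.9, and the highest cell left out had 8.75. In iBAT the members ranged from 3.53 to 90.8, with a median of 7.44, and the highest cell left out had 3.47. The 3 genes had no UMI in 57.7% of the other mesenchymal cells of iWAT and in 85.6% of those of iBAT. A fixed share therefore meant a higher limit in iWAT. At the iBAT limit, 557 iWAT cells (3.67%, 95% interval 3.37 to 3.98) would have been members, and at the iWAT limit 98 iBAT cells (0.403%, 0.327 to 0.491). Within 10% of the limit lay 25 members and 25 other cells in iWAT, and 19 members and 21 other cells in iBAT.

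The limit lay on a slope and not at a gap. The summed level of 46 antiviral effector genes, from which the 3 selecting genes had been left out, was 12557 CPM (UMIs per 1000000 UMIs of the cells summed) in the top 0.25% of iWAT cells by score, 7340.2 CPM in the next 0.25% and 6069 CPM in ranks 0.5 to 1%. Outside the limit it went on down, to 5625 CPM in ranks 1 to 2%, 4561 CPM in ranks 2 to 5% and 2845 CPM in ranks 50 to 100%, whose cells had no UMI of the 3 genes. The same ranks of iBAT gave 7699.5, 5824 and 4494 CPM inside the limit, 3676 and 2876 CPM in the next ranks outside it and 1868 CPM in ranks 50 to 100%. Cxcl10 was steeper, at 2458, 509 and 198 CPM inside the iWAT limit and 48.5 CPM just outside. In iBAT it was at 434, 66.6 and 4.32 CPM inside and 3.92 CPM just outside, so that its iBAT level in members came from the top ranks. No gap stood at the limit in either library.

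**Figure D1:**
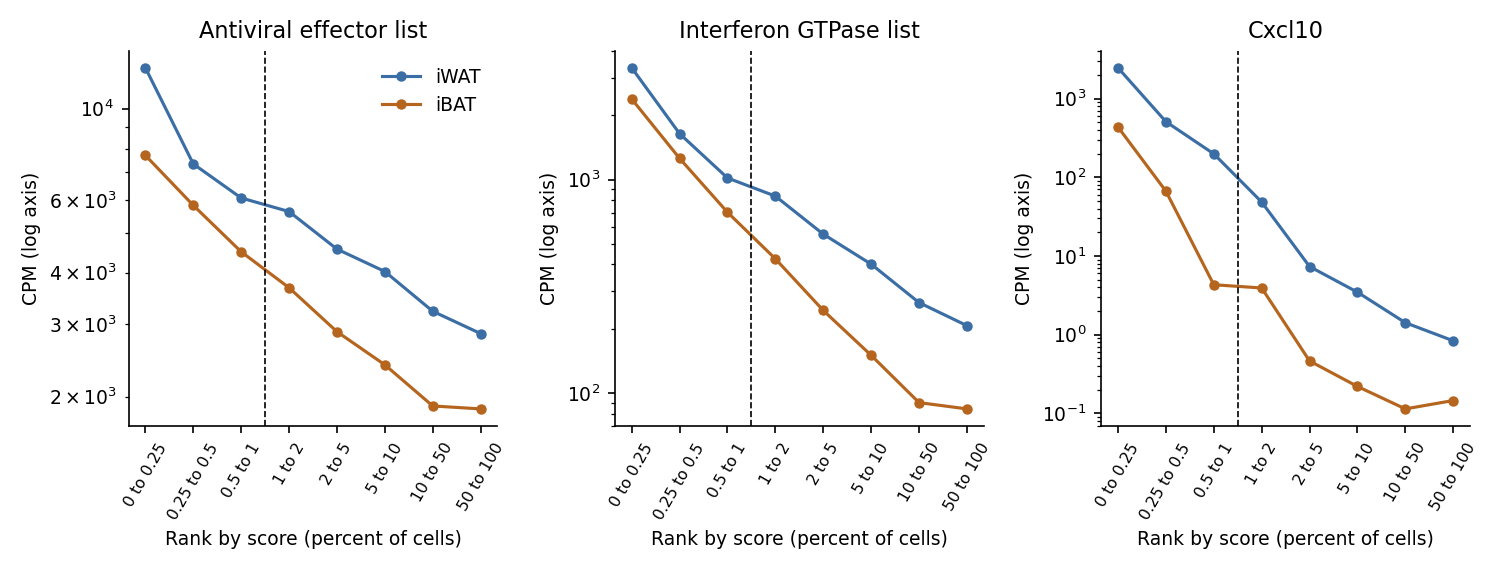
Summed level in CPM (log axis) of the antiviral effector list, the interferon GTPase list and Cxcl10 in mesenchymal cells ranked by the share of Ifit1, Ifit3 and Mx1 UMIs, with iWAT in blue, iBAT in brown and the 1% limit as a dashed line. All 3 levels decline across the limit in both libraries, the antiviral list from 6069 to 5625 CPM in iWAT and from 4494 to 3676 CPM in iBAT, and the iWAT line lies above the iBAT line at every rank.

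Cell by cell, the antiviral effector list set most members apart. In iWAT the members' median was 68.3 UMIs of the list per 10000 UMIs (5th to 95th percentile 44.5 to 155) and that of the other mesenchymal cells 30.6 (18.01 to 48.1). In iBAT the medians were 53.5 (27.8 to 98.4) and 18.6 (10.1 to 33.1). Above the 99th percentile of the other cells lay 107 of 152 iWAT members (70.4%) and 166 of 243 iBAT members (68.3%). The distributions overlapped, with 49 other cells of iWAT and 35 of iBAT over the members' median.

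**Figure D2:**
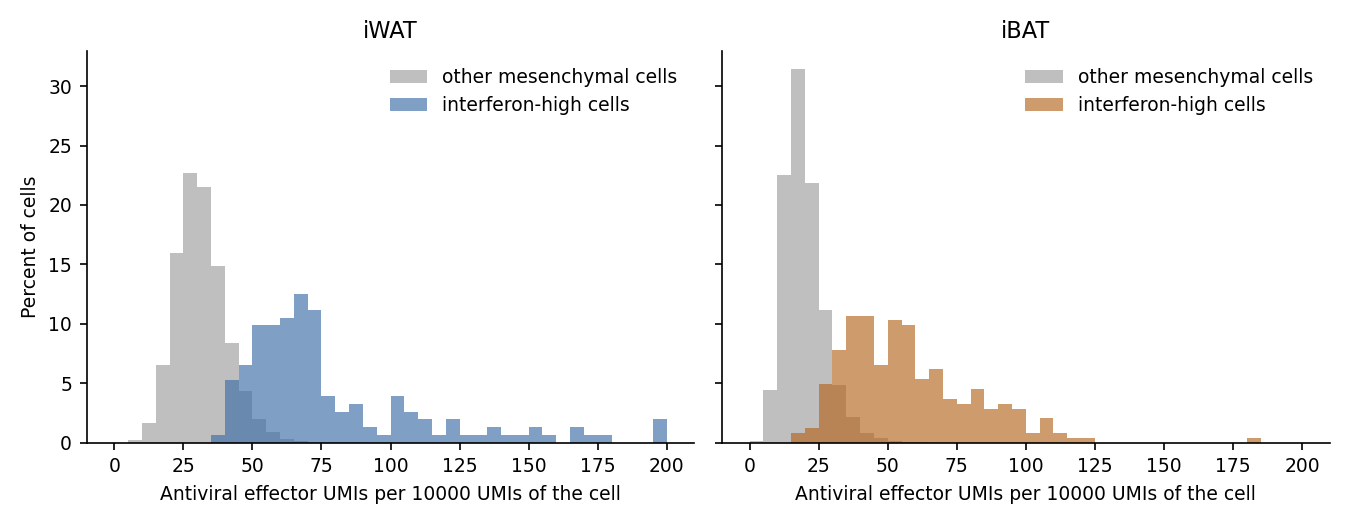
Percent of cells by the number of antiviral effector UMIs per 10000 UMIs of the cell, for interferon-high cells (coloured) and other mesenchymal cells (grey) of each library. The last bar holds every cell of 195 or more, and the members, with medians of 68.3 in iWAT and 53.5 in iBAT, lie to the right of the other cells with some overlap.

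The members resembled the other mesenchymal cells in depth and quality. Median UMIs per cell were 18652 in iWAT members and 18102 in the other cells, and 26238 and 27770.5 in iBAT. Median genes per cell were 4728 and 4710 in iWAT, and 5559 and 5819 in iBAT. Mitochondrial UMIs had medians of 5.17% and 5.45% in iWAT, and 6.27% and 6.43% in iBAT. Scrublet marked 0 of 152 and 0 of 243 members as doublets, against 1.03% and 1.16% of the other cells.

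The marker genes Cxcl10 and Rsad2, which the rule did not use, checked the label. Cxcl10 encodes a chemokine that draws activated T cells. It stood at 829.6 CPM (exact 95% Poisson interval 796 to 864) in iWAT members (2358 UMIs) and 1.88 CPM in the other cells, and at 126 CPM (840 UMIs) and 0.181 CPM in iBAT. The ratios were 441-fold (95% interval 401 to 485) and 694-fold (575 to 844). The members, 1% of the mesenchymal cells, held 81.7% (80.2 to 83.1) of all mesenchymal Cxcl10 UMIs in iWAT and 87.0% (84.8 to 89.1) in iBAT. Rsad2, the antiviral enzyme viperin, was at 384 CPM in members and 3.27 CPM in other cells of iWAT, and at 29.5 and 0.125 CPM in iBAT. Members held 54.3% (52.1 to 56.5) and 69.6% (63.9 to 74.9) of its UMIs. Summed over the members, both markers were far higher, as the label states. In ranks 0.5 to 1% of iBAT, Cxcl10 stood at 4.32 CPM, against 3.92 CPM in ranks 1 to 2%. Rsad2 stood at 7.40 CPM and 2.41 CPM there. The iBAT levels of both genes over all mesenchymal cells were under the 2 CPM filter used for the counts below.

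Neither marker was detected in every member. With each cell thinned to 10000 UMIs, which left out 10 iWAT members and 1531 other iWAT cells, Cxcl10 had a UMI in 45.8% of iWAT members (65 of 142) and 1.18% of the other cells, and in 14.4% of iBAT members (35 of 243) and 0.133% of the other cells. Rsad2 gave 56.3% and 2.67% in iWAT and 16.05% and 0.129% in iBAT. With the limit of the other library the Cxcl10 shares were 19.4% in iWAT and 30.6% in iBAT and the Rsad2 shares 30.2% and 31.6%. This swap put the lower limit on iWAT and the higher one on iBAT. At the iBAT limit in both libraries, iWAT and iBAT had 19.4% and 14.4% for Cxcl10 and 30.2% and 16.05% for Rsad2. At the iWAT limit in both they had 45.8% and 30.6%, and 56.3% and 31.6%. At either common limit iWAT thus had the higher share of both genes. Unthinned, Cxcl10 was seen in 75 of 152 and 46 of 243 members. Isg15, a ubiquitin-like protein that is joined to other proteins in the antiviral state, was nearer to uniform, with a UMI in 100% of thinned iWAT members and 88.9% of iBAT members, against 74.0% and 6.52% of the other cells. Ifnar1, a subunit of the type I interferon receptor, was seen in 23.2% and 22.7% in iWAT and 18.9% and 19.9% in iBAT.

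Few genes differed by 4-fold or more between members and the other cells. Of 11424 genes with at least 2 CPM over the mesenchymal cells of both libraries, without the 3 selecting genes and 4 close copies of them, 33 were 4-fold or more higher in iWAT members (0.289%) and 67 in iBAT members (0.586%), and 29 in both (0.254%). Those 29 were 87.9% of the iWAT genes and 43.3% of the iBAT genes, and for 6 of them (AW011738, Gbp3, Gm4951, Irf7, Oasl1 and Usp18) the other cells alone were under 2 CPM in a library, so that they passed the filter only through the members. In the lower direction 17 genes (0.149%) and 14 genes (0.123%) passed 4-fold, and 1 in both (0.00875%). Which direction held more genes in iWAT depended on the settings. With the top 0.5% of cells as members, 65 genes were 4-fold or more higher in iWAT and 85 lower, and a stricter mesenchymal definition and thinning before selection gave 34 and 32 higher against 61 and 60 lower. At 2-fold, 138 genes (1.21%) were higher in iWAT members, 151 (1.32%) in iBAT members and 88 (0.77%) in both, and 154 (1.35%), 182 (1.59%) and 13 (0.114%) were lower. The median log2 ratio over all 11424 genes was -0.05 in both libraries. Of the 29 genes 21 stood on one of the gene lists used here.

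**Figure D3:**
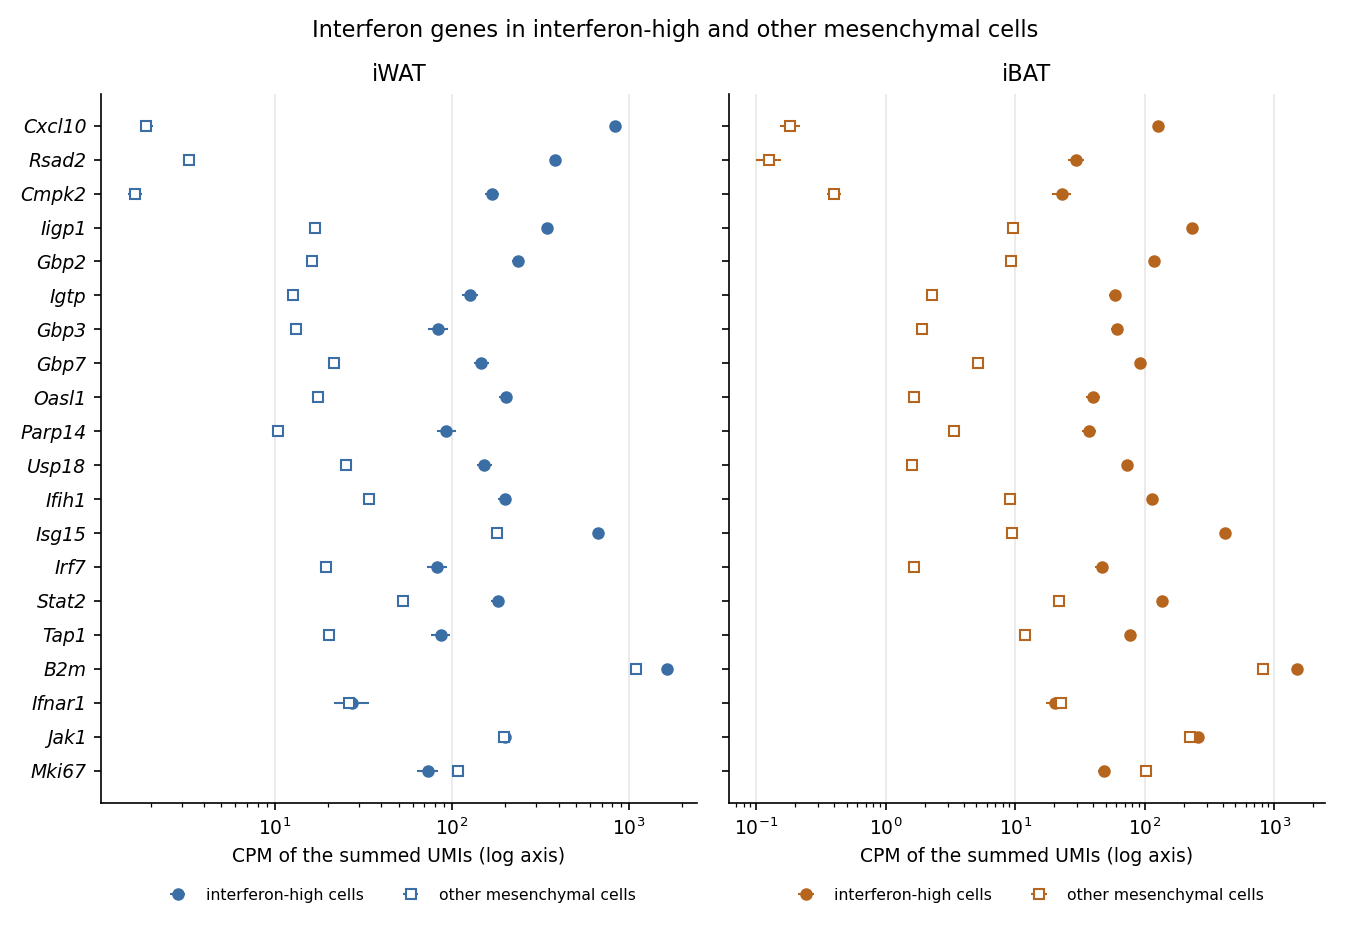
Level in CPM (log axis) of 20 genes in interferon-high cells (filled circles) and other mesenchymal cells (open squares) of iWAT and iBAT, each from summed UMIs with an exact 95% Poisson interval. The chemokine Cxcl10 and the antiviral genes Rsad2 and Cmpk2 differ most, the receptor Ifnar1 and the kinase Jak1 lie together in both libraries, and the proliferation gene Mki67 is lower in the members.

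Interferon-inducible GTPases, which coat and disrupt the membranes around intracellular pathogens, had the largest median ratio of any list. Of 18 on the list 9 passed the filter, with 7 in iWAT and 9 in iBAT at 4-fold or more and median log2 ratios of 2.67 and 3.68. Summed, the 18 genes came to 1743 CPM in iWAT members and 258 CPM in other cells, and to 1263 and 97.4 CPM in iBAT. Iigp1, which attacks the vacuole of Toxoplasma, ranked first of the genes past the filter by the smaller of its ratios in the 2 libraries. It stood at 342 CPM in members and 16.9 CPM in the other cells of iWAT and at 230.1 and 9.55 CPM in iBAT, or 20.2-fold (95% interval 18.9 to 21.7) and 24.1-fold (22.8 to 25.5). Gbp2 stood at 236 CPM in members and 16.2 CPM in the other cells of iWAT and at 118 and 9.23 CPM in iBAT, and Igtp stood at 127 CPM in members and 12.7 CPM in the other cells of iWAT and at 58.6 and 2.28 CPM in iBAT. The guanylate-binding proteins Gbp3 and Gbp7 were 6.36-fold (5.56 to 7.26) and 6.74-fold (6.09 to 7.45) higher in iWAT and 31.8-fold (28.4 to 35.6) and 17.9-fold (16.5 to 19.6) higher in iBAT. Irgm2 and Ifi47 had log2 ratios of 2.49 and 2.39 in iWAT and 3.60 and 3.44 in iBAT. Irgm1 was at 1.71 and 2.95. The other 9 listed genes missed the filter in at least 1 library and had ratios above 1 in both. Among them Gbp5 had 96 member UMIs in iWAT, 40.6-fold (31.6 to 51.6), and 64 in iBAT, 39.1-fold (28.9 to 52.4). GTPases of this family resemble each other closely and how reads that match several of them were assigned is not stated, so the split between single members is uncertain.

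Antiviral effectors formed the largest group. Of 46 listed 36 passed the filter, of which 10 in iWAT and 23 in iBAT were 4-fold or more higher and 27 were 2-fold or more higher in both. Their median log2 ratios were 1.70 and 2.53, and 0 were 2-fold or more lower in either. Oasl1, a member of the oligoadenylate synthetase family, was 11.5-fold (10.5 to 12.5) higher in iWAT members and 24.0-fold (20.9 to 27.4) in iBAT. Its relatives Oas1g and Oasl2 were 6.36-fold (4.61 to 8.57) and 4.17-fold (3.91 to 4.44) higher in iWAT, and 12.8-fold (11.0 to 14.8) and 28.6-fold (26.8 to 30.5) in iBAT. Parp14, an ADP-ribosyltransferase, reached 92.9 CPM against 10.5 CPM in iWAT and 37.2 against 3.36 CPM in iBAT. Dtx3l, a ubiquitin ligase that works with Parp9, had log2 ratios of 2.07 and 2.94. Slfn8, Tor3a, Herc6 and Phf11d followed, with log2 ratios of 2.46, 2.46, 2.39 and 2.27 in iWAT and 3.06, 2.75, 2.94 and 3.87 in iBAT.

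The listed effectors differed widely in their ratios. Cmpk2, a mitochondrial nucleotide kinase whose gene lies next to Rsad2, stood at 169 against 1.63 CPM in iWAT and 22.8 against 0.398 CPM in iBAT, where it missed the filter. Ifi44, an induced protein of unclear role that missed it there too, was at 246 against 38.3 CPM and 85.7 against 0.977 CPM. Eif2ak2, the kinase that halts translation on sensing double-stranded RNA, was only 2.30-fold (2.09 to 2.52) and 3.51-fold (3.28 to 3.76) higher. Ifitm3 and Ifitm2, which block viral entry at membranes, were abundant in all cells. Ifitm3 was at 1018 against 753 CPM in iWAT and 1064 against 625 CPM in iBAT, and Ifitm2 at 349 against 311 CPM and 567 against 525 CPM. Ifi27 had log2 ratios of 0.05 and 0.50.

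Among nucleic acid sensors, the cytosolic RNA helicases and the endosomal receptor Tlr3 were higher, and Cgas, Sting1 and Mavs had ratios near 1. Of 14 listed 13 passed the filter, with 2 in iWAT and 6 in iBAT at 4-fold or more and medians of 0.75 and 0.76. Ifih1, which encodes the RNA sensor MDA5, stood at 198 against 34.0 CPM in iWAT and 114 against 9.11 CPM in iBAT. Tlr3, a receptor for double-stranded RNA, was 6.33-fold (5.06 to 7.82) and 4.92-fold (4.04 to 5.94) higher. Ddx58, which encodes RIG-I, and its relative Dhx58 had log2 ratios of 1.29 and 1.85 in iWAT and 2.38 and 3.55 in iBAT. Zbp1, a sensor of Z-form nucleic acid that triggers cell death, was 1.89-fold (1.68 to 2.11) higher in iWAT and 13.2-fold (12.0 to 14.5) in iBAT. The DNA sensor Cgas and its partner Sting1 had ratios whose intervals included 1, with 1.20-fold (0.886 to 1.59) and 1.096-fold (0.923 to 1.29) in iWAT and 0.991-fold (0.802 to 1.21) and 0.999-fold (0.885 to 1.12) in iBAT. The adaptor Mavs gave 0.975-fold (0.727 to 1.28) and 1.00-fold (0.827 to 1.20). Ifi204, a DNA sensor of the p200 family, was 3.08-fold (2.83 to 3.34) and 4.67-fold (4.40 to 4.94) higher.

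Among signalling genes the transcription factors Stat2, Irf7, Irf9 and Irf1 were higher in members and the kinases were near level. Stat2 stood at 182 against 53.2 CPM in iWAT and at 135 against 21.6 CPM in iBAT. Irf7, the factor that amplifies type I interferon genes, was 4.26-fold (3.72 to 4.85) and 28.0-fold (24.6 to 31.8) higher, and Irf9 1.58-fold (1.38 to 1.79) and 3.14-fold (2.85 to 3.45). Irf1 was 3.42-fold (2.88 to 4.04) higher in iWAT and 1.95-fold (1.69 to 2.24) in iBAT. The kinases Jak1 and Tyk2 were 1.01-fold (0.932 to 1.102) and 1.22-fold (0.706 to 1.95) in iWAT and 1.14-fold (1.09 to 1.20) and 0.999-fold (0.698 to 1.39) in iBAT, and Irf3 0.964-fold (0.694 to 1.31) and 0.862-fold (0.694 to 1.06). Of 12 signalling genes that passed, 2 in iWAT and 3 in iBAT were 4-fold or more higher. In iWAT these were Irf7 and Irf5, the latter at 4.01-fold (2.63 to 5.89) from 27 member UMIs. Irf5 was 1.22-fold (0.788 to 1.81) in iBAT.

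Receptor genes were near level, and ligand genes were hardly detected. The 5 receptor genes that passed the filter had median log2 ratios of -0.06 and -0.09, close to those over all genes, and 0 reached 2-fold in either direction. Ifnar1 was at 27.4 against 26.1 CPM in iWAT and 20.4 against 22.5 CPM in iBAT, and Ifnar2 at 17.6 against 18.1 CPM and 20.7 against 19.2 CPM. Of 21 interferon genes looked for, 4 were listed in both libraries, and 0 passed the filter. Ifnab, Ifnk and Ifng had 0 UMIs in the members of both, which by a count of 3 UMIs allows a gene up to 1.06 CPM in members of iWAT and up to 0.450 CPM in those of iBAT. Ifnz had 1 UMI in iWAT members and 2 in iBAT members. Ifnb1, listed in iWAT only, had 0 UMIs in members and 3 in the other cells.

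Among feedback inhibitors, Usp18, which removes Isg15 from proteins and blocks signalling at Ifnar2, was 6.07-fold (5.50 to 6.69) higher in iWAT members and 45.2-fold (40.5 to 50.3) in iBAT. Socs1, a suppressor of Jak kinases, was 6.88-fold (5.64 to 8.33) higher in iWAT and 1.58-fold (1.28 to 1.92) in iBAT, where 113 and 99 member UMIs stood behind the values. Its relatives Socs2 and Socs3 were not higher, with log2 ratios of -0.21 and 0.10 in iWAT and -0.31 and -0.22 in iBAT. Cd274, which encodes the checkpoint ligand PD-L1, missed the filter in iBAT and stood at 44.3 against 2.73 CPM in iWAT and 6.89 against 0.913 CPM in iBAT.

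Chemokines other than Cxcl10 fell into rare and common ones. Cxcl9, another ligand of Cxcr3 on T cells, missed the filter in both libraries and was at 26.4 against 1.41 CPM in iWAT and 11.8 against 0.367 CPM in iBAT. Ccl5, which also missed it, was at 19.7 against 1.34 CPM and 17.1 against 0.534 CPM, from 5 iWAT and 7 iBAT members. Ccl2 and Ccl7, which attract monocytes, were abundant throughout. Ccl2 was at 1041 against 365 CPM in iWAT, 2.85-fold (2.75 to 2.95), and at 994 against 876 CPM in iBAT, 1.13-fold (1.11 to 1.16). Ccl7 gave 3.12-fold (3.01 to 3.24) and 1.36-fold (1.32 to 1.40). Ccl8 was 2.21-fold (1.95 to 2.48) and 2.06-fold (1.84 to 2.30) higher. Of the 10 chemokine genes past the filter 0 reached 4-fold higher, and 3 in iWAT and 1 in iBAT were 2-fold or more higher. In iWAT 1 passed 4-fold in the lower direction, Cxcl5 at 0.193-fold (0.0526 to 0.495) with 4 member UMIs. No other was 2-fold or more lower in either library. The NF-kB and inflammation list had 0 of 12 genes at 2-fold in either library and medians of -0.02 and -0.05.

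Antigen presentation on MHC class I was higher by smaller factors. Of 23 listed genes 19 passed, and 7 were 2-fold or more higher in both libraries, with medians of 0.72 and 0.96. Tap1, which pumps peptides into the endoplasmic reticulum, was the one gene at 4-fold or more in both, at 86.5 against 20.2 CPM in iWAT and 76.4 against 11.8 CPM in iBAT. It fell short of 4-fold in iWAT with the top 2% of cells, without the 10 highest members and with the limit of the other library. The immunoproteasome subunit Psmb8 was 2.45-fold (2.13 to 2.81) and 4.83-fold (4.31 to 5.40) higher. The light chain B2m was at 1643 against 1101 CPM and 1484 against 816 CPM. H2-K1 was 1.57-fold (1.48 to 1.66) and 2.19-fold (2.07 to 2.30) higher and H2-D1 1.46-fold (1.37 to 1.55) and 1.92-fold (1.84 to 2.01). The general chaperones Calr, Canx and Pdia3, also on the list, had log2 ratios of 0.03, -0.10 and 0.01 in iWAT and 0.17, 0.06 and 0.11 in iBAT. Sample tags were attached through an antibody to MHC class I, per the methods, and its part in the choice of cells was not tested. For MHC class II 0 of the 3 genes that passed reached 2-fold, and its regulator Ciita had 0 member UMIs in iWAT and 1 in iBAT.

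Of the 29 genes 4-fold or more higher in both libraries, 8 stood on no fixed list. Ifi203, Ifi205, Ifi207 and Mndal belong to the interferon-inducible p200 family, which binds DNA and lies in a cluster of near copies, so their split is uncertain. Their log2 ratios were 2.43, 2.42, 2.21 and 2.11 in iWAT and 4.10, 2.36, 2.13 and 3.12 in iBAT. Mndal was the most abundant of them, at 304 CPM in iWAT members and 233 CPM in iBAT members. Gm4951 stood at 60.9 against 4.73 CPM and 37.6 against 1.74 CPM. Sp110, a nuclear body protein, was 4.92-fold (4.28 to 5.63) and 21.6-fold (19.5 to 24.0) higher, and its relative Sp140 just missed 4-fold in iWAT at 3.92-fold (3.43 to 4.45). Parp11 and AW011738 had log2 ratios of 2.19 and 2.31 in iWAT and 2.06 and 3.56 in iBAT.

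**Figure D4:**
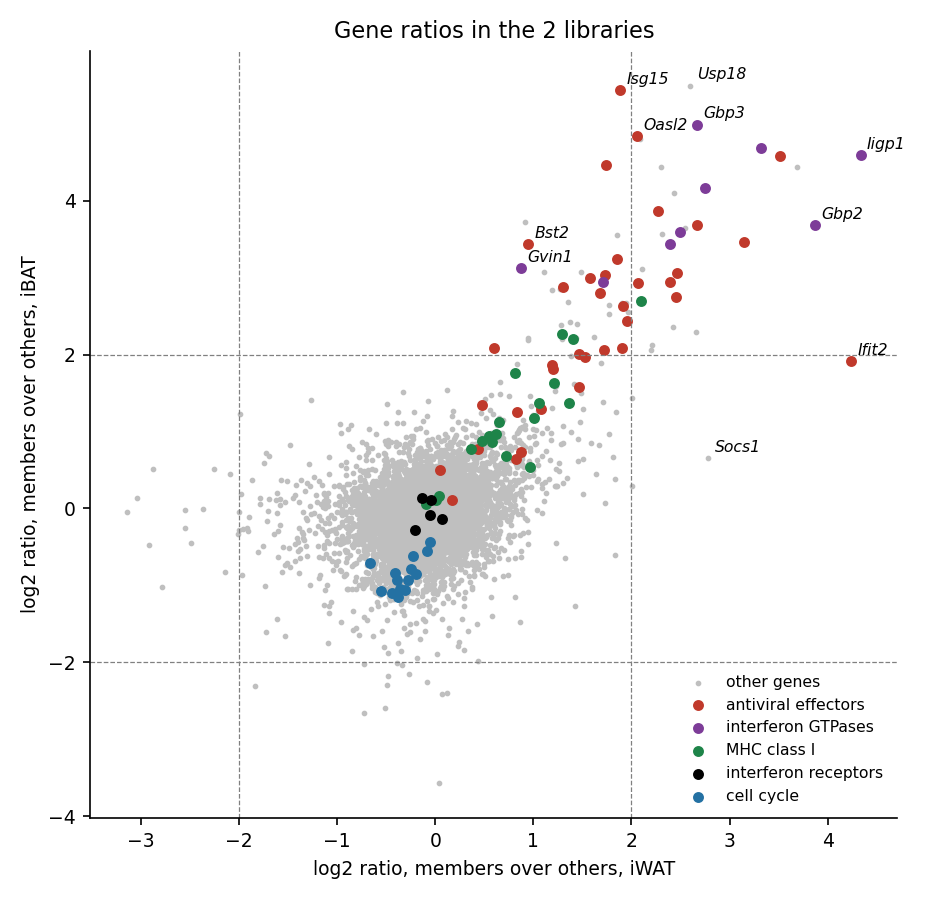
Log2 ratio of members over other mesenchymal cells in iWAT (horizontal) and iBAT (vertical) for the genes that passed the filter, with fixed lists in colour and dashed lines at 4-fold. Genes with 0 member UMIs in a library are not drawn, 3 in all. Antiviral effectors and interferon GTPases fill the upper right, with Isg15 at 1.89 and 5.44 and Ifit2 at 4.24 and 1.92, while the interferon receptors lie near the origin and the cell cycle genes below it.

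Promoters were searched for the elements of both interferon pathways. The ISRE, taken as GAAA, any 2 bases and GAAA again on either strand, was searched from 250 bases before to 50 bases after each start in the RefSeq promoter table (build GRCm38.p6), which held 24 of the 29 genes. It was present for 13 of the 24 (54.2%, 95% interval 32.8 to 74.4), against 327 of 9013 filter-passing genes in the table (3.63%) and 1079 of 27025 genes in all (3.99%). The interferon GTPase list had it in 9 of 10 genes, the antiviral effector list in 15 of 38, the cell cycle list in 0 of 13 and the receptor list in 0 of 5. The GAS motif TTCNNNGAA was present for 4 of the 24 genes (16.7%, 95% interval 4.74 to 37.4). That interval includes the 8.00% of filter-passing genes with the motif. GAS was present for 6 of 10 GTPase genes, 8 of 38 antiviral effectors, 1 of 13 cell cycle genes and 2 of 5 receptor genes. Near copies such as the Gbp genes share promoter sequence and are not independent. The 250 bases before the start are shown for the 2 label markers, for Isg15, which led the genes whose ratio differed between the libraries at 10 CPM or more, and for 3 GTPase genes, with the ISRE letters in capitals. They lie at chr5:92348890-92349139 (minus strand) for Cxcl10, chr12:26456453-26456702 (minus strand) for Rsad2, chr4:156200819-156201068 (minus strand) for Isg15, chr3:142620413-142620662 (plus strand) for Gbp2, chr3:142559794-142560043 (plus strand) for Gbp3 and chr11:58199306-58199555 (plus strand) for Igtp. Gbp3 has a second start in the table, whose window is not shown. Each is written 5′ to 3′ in the direction of the gene.
Cxcl10: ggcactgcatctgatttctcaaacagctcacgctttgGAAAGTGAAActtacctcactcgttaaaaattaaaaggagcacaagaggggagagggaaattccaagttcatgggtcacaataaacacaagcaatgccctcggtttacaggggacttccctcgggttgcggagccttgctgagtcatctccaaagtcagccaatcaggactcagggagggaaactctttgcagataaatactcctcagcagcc
Rsad2: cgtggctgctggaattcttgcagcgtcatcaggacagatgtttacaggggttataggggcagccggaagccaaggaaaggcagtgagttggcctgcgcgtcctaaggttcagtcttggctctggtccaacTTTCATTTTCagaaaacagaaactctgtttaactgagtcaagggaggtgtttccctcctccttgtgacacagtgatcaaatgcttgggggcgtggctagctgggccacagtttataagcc
Isg15: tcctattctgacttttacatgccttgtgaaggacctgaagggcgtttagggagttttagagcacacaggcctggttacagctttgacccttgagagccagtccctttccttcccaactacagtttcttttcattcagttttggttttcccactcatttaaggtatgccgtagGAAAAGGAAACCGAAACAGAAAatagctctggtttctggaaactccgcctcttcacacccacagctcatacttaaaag
Gbp2: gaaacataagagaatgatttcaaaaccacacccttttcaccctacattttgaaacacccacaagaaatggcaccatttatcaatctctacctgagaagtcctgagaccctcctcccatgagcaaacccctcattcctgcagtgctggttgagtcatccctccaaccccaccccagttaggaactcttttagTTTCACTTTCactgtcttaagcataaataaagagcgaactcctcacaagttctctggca
Gbp3: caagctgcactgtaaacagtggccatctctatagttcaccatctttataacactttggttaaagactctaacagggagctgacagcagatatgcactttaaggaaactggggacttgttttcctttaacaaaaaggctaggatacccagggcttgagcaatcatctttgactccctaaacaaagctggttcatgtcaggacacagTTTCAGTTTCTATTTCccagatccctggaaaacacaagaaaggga
Igtp: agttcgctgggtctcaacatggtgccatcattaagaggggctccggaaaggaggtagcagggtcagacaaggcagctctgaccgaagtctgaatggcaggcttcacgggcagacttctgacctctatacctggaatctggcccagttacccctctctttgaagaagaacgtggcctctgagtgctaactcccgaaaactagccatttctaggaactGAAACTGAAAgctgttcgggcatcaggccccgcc

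The motif ends 203 bases before the start in Cxcl10, 110 in Rsad2, 49 in Gbp2 and 24 in Igtp. Gbp3 holds 2 overlapping copies that end 35 and 29 bases before the start, and Isg15 holds 3 that overlap and end 68, 62 and 56 bases before it. Of these 6 promoters only Igtp held a GAS match in the searched window, and it did not overlap the ISRE. In Rsad2, Gbp2 and Gbp3 the letters read on the other strand, so the capitals show the reverse complement. The windows of Irf7, Oasl1, Cmpk2, Ifit2 and Ifnar1 held 0 ISRE matches, which says only that these letters are not in those windows. Irf7 and Oasl1 were among the 29 genes.

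Matrix genes of stroma differed little. Of 15 matrix genes 0 reached 2-fold in iWAT, with a median log2 ratio of 0.03, and 1 did in iBAT, with a median of 0.25. Col1a1, the main fibrillar collagen, was 1.02-fold (1.02 to 1.03) and 1.43-fold (1.42 to 1.44), and Pdgfrb 1.14-fold (1.03 to 1.27) and 1.17-fold (1.11 to 1.24). Lum, a small proteoglycan, was the one at 2-fold, at 11.2 against 3.95 CPM in iBAT. The adipogenic list had 0 of 10 genes at 2-fold, and Pparg, the master regulator of fat cells, stood at 13.7 against 10.9 CPM in iWAT and 25.0 against 31.0 CPM in iBAT. Of 10 progenitor surface genes 7 passed, with medians of -0.15 and 0.23 and a summed level 1.098-fold (1.06 to 1.14) that of the other cells in iWAT and 1.69-fold (1.67 to 1.71) in iBAT. Ly6a, a surface protein of progenitors that interferon is known to induce, was 2.27-fold (2.11 to 2.43) and 1.97-fold (1.93 to 2.01) higher. F3, which encodes tissue factor, had log2 ratios of -0.15 and 0.78. Cd34 was 1.21-fold (0.519 to 2.39) in iWAT, from 8 member UMIs, and 0.369-fold (0.287 to 0.467) in iBAT. The FGF axis had 0 of 12 genes at 2-fold. Its receptor Fgfr1 was 1.08-fold (1.01 to 1.15) and 0.885-fold (0.843 to 0.929) and the ligand Fgf2 1.13-fold (1.06 to 1.21) and 0.915-fold (0.863 to 0.970). Ucp1, the uncoupling protein, missed the filter. It had 0 UMIs in iWAT members, which allows up to 1.06 CPM, and 1 in iBAT members. No comparison with the other cells is drawn from these counts.

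Marker lists of other cell types had low summed levels in members. Against the other cells, the endothelial, Schwann cell and mural lists were 1.60-fold (1.29 to 1.95), 1.88-fold (1.58 to 2.22) and 1.28-fold (1.18 to 1.39) in iBAT and 0.785-fold (0.525 to 1.13), 1.56-fold (0.952 to 2.43) and 1.02-fold (0.882 to 1.17) in iWAT, and the muscle list 0.490-fold (0.425 to 0.563) in iBAT and 0.590-fold (0.517 to 0.670) in iWAT. Summed over 10 genes, macrophage markers came to 19.7 CPM in iWAT members and 18.7 CPM in other cells, and to 28.5 and 30.5 CPM in iBAT. The defining marker Adgre1 had 0 UMIs in iWAT members and 1 in iBAT members, and Tyrobp 0 in both. The 7 endothelial markers summed to 10.2 against 13.0 CPM and 14.8 against 9.30 CPM. The 7 epithelial markers gave 20.8 against 17.0 CPM in iWAT and 0.150 against 0.376 CPM in iBAT, the 5 Schwann cell markers 7.04 against 4.50 CPM and 21.1 against 11.3 CPM, the 6 mural markers 72.1 against 70.9 CPM and 87.7 against 68.4 CPM, and the 5 muscle markers 83.4 against 141 CPM and 30.4 against 62.1 CPM. Their part in the results was not tested. The cell death and stress list had 1 of 19 genes at 2-fold in iWAT, the inflammatory caspase Casp4 at 2.03-fold (1.76 to 2.33), and 0 in iBAT.

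The cell cycle list was lower in members than in the other mesenchymal cells as a whole. All 14 cell cycle genes had negative log2 ratios in both, with medians of -0.33 and -0.89, and 0 in iWAT and 5 in iBAT were 2-fold or more lower. The summed list stood at 1372 against 1702 CPM in iWAT, 0.806-fold (0.781 to 0.832), and at 1277 against 2386 CPM in iBAT, 0.535-fold (0.524 to 0.547). Mki67, a protein of dividing cells, was at 73.2 against 108 CPM and 48.4 against 102 CPM, with a UMI in 24.6% of thinned iWAT members against 41.5%, and in 24.7% of iBAT members against 41.9%. Top2a had log2 ratios of -0.44 and -1.10. Within iWAT members the list was at 1565, 1398 and 1266 CPM in ranks 0 to 0.25%, 0.25 to 0.5% and 0.5 to 1%, highest in the top rank. Cells just outside the limit were also low, at 1232 CPM in ranks 1 to 2% and 1093 CPM in ranks 2 to 5%, and ranks 50 to 100% were at 1809.6 CPM. In iBAT the member ranks gave 1295, 1325 and 1241 CPM, the next ranks 1303 and 1422 CPM and ranks 50 to 100% 2489.8 CPM. The part of the cell cycle in the other ratios was not tested.

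**Figure D5:**
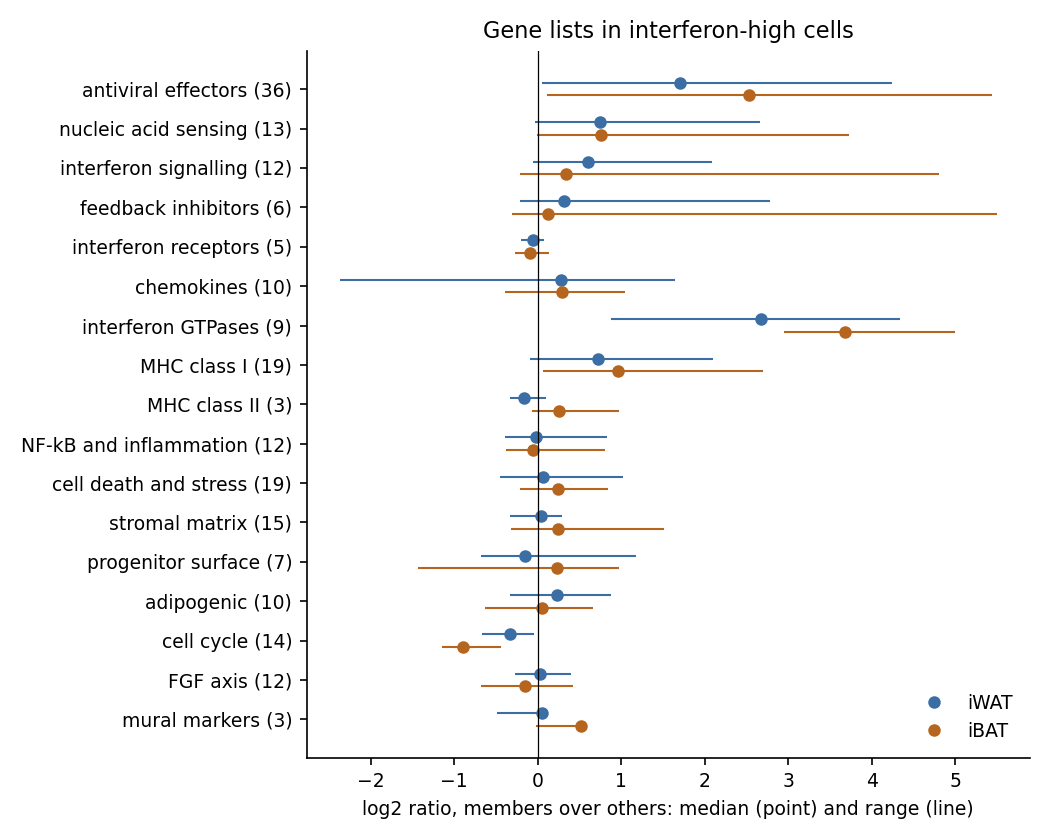
Log2 ratio of members over other mesenchymal cells for fixed gene lists with at least 3 genes past the filter (number in brackets), shown as the median (point) and the range (line) in iWAT (blue) and iBAT (brown). The GTPase and antiviral lists lie furthest right, with medians of 2.67 and 1.70 in iWAT and 3.68 and 2.53 in iBAT, and the medians of the cell cycle list lie left of 0.

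The genes lowest in members of both libraries rested on few UMIs. Nefl, a neurofilament subunit, had 0 UMIs in iWAT members and 4 in iBAT members (0.600 against 4.75 CPM). The others by rank were Gm26916, Phf19, Bdkrb2, Des, Rcor2, H1f5, Dgkk, Slc16a11 and Gm43154, with 2 to 13 member UMIs in iWAT and 5 to 18 in iBAT. Des, an intermediate filament of muscle and pericytes, was at 2.11 against 6.48 CPM and 0.899 against 2.44 CPM.

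Most shared genes had higher levels in iWAT, in the other cells and in the members, whose limit was higher there. Of the 29 shared genes, 28 were higher in the other cells of iWAT than in those of iBAT, 27 were higher in the members of iWAT, and 24 had the larger ratio in iBAT. Over all 11424 genes these shares were 43.1%, 47.8% and 49.3%. The 6 genes that passed only through the members have a low level in the other cells by construction, and without them the counts were 22, 21 and 18 of 23. The member limit was a score of 8.85 in iWAT and 3.53 in iBAT, so member levels are not compared at a like score. Ranks 0.5 to 1% of iWAT and 0.25 to 0.5% of iBAT had like levels of the selecting genes, at 1033 and 963 CPM. There the antiviral list stood at 6069 and 5824 CPM, and the GTPase list at 1017 and 1257 CPM. Iigp1 and Gbp2 stood lower in these iWAT ranks, at 196 against 224 CPM and 82.2 against 137 CPM. Usp18 and Irf7 stood higher, at 102 against 70.5 CPM and 63.4 against 53.3 CPM. Outside these 29, Isg15 differed most in its ratio among genes of at least 10 CPM over the mesenchymal cells of both libraries. It stood at 180.3 CPM in the other iWAT cells and 9.50 CPM in those of iBAT, but at 667 and 413 CPM in members, so its ratio was 3.70-fold (95% interval 3.53 to 3.87) in iWAT and 43.4-fold (41.5 to 45.4) in iBAT. Bst2, which tethers budding viruses, behaved alike at 339 against 176 CPM and 143 against 13.2 CPM. Ifit2, a relative of the selecting genes, went the other way. It was at 199 against 10.5 CPM in iWAT, where its 10 highest members held 70.8% of the member UMIs, and at 40.0 against 10.6 CPM in iBAT. The very large GTPases Gvin1 and Gvin2, near copies, were 1.84-fold (1.48 to 2.26) and 2.15-fold (1.69 to 2.71) higher in iWAT and 8.71-fold (8.18 to 9.27) and 8.42-fold (7.96 to 8.90) in iBAT. With the iBAT limit applied to iWAT, and the iWAT limit to iBAT, 10 genes were 4-fold or more higher in iWAT, 78 in iBAT and 10 in both, and the cause was not tested.

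Some genes outside the interferon lists also differed between the libraries. Serpinb2, a protease inhibitor, was lower in iBAT members at 13.3 against 60.4 CPM and at 30.3 against 42.3 CPM in iWAT. The proteases Mcpt8 and Gzme had log2 ratios of -0.49 and 0.07 in iWAT and -2.29 and -2.41 in iBAT. Cemip, a hyaluronan-degrading protein, was 0.709-fold (0.582 to 0.855) in iWAT and 2.56-fold (2.46 to 2.67) in iBAT, and the matricellular protein Ccn3 0.767-fold (0.559 to 1.03) and 2.38-fold (2.20 to 2.57).

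Members varied among themselves. The 10 members with most Cxcl10 held 48.0% of the member UMIs in iWAT and 75.0% in iBAT, and the highest single member had 179 and 186 Cxcl10 UMIs. This share is high by construction for a gene that few members hold. For Rsad2 the 10 highest members held 52.7% and 51.3%, and for Isg15 18.04% and 13.7%. Members were then divided by whether a Cxcl10 UMI was seen, a split made after its values were known. In iWAT 75 members had one and 77 did not, with median depths of 20167 and 16746 UMIs, and in iBAT 46 had one and 197 did not, with 27802 and 26083 UMIs. Of 5880 genes with at least 20 CPM over members in both libraries, 53 were 2-fold or more higher with a Cxcl10 UMI in both (0.901%) and 1 was lower (0.017%).

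The 53 genes held both genes of the interferon, MHC class I and chemokine lists and genes of cell division. The share of each kind among the 5880 genes was not counted, so their numbers are not compared. Rsad2 stood at 696 against 58.3 CPM in iWAT and 80.7 against 16.4 CPM in iBAT. Gbp2 was at 388 against 77.7 CPM and 284 against 75.7 CPM, and Oasl1 at 322 against 75.6 CPM and 103 against 23.5 CPM. Ccl2 was at 1420.2 against 644 CPM and 2076 against 716 CPM. Of the 14 genes of the cell cycle list 4 (Mki67, Cdk1, Birc5 and Ube2c) were also among the 53, with Mki67 at 110.1 against 34.6 CPM in iWAT and 90.2 against 37.7 CPM in iBAT and Ube2c at 346 against 87.8 CPM and 272 against 118 CPM. Other genes of cell division on no list were among the 53 as well, such as Plk1, Aurkb, Ccna2, Tpx2, Prc1, Kif23 and Mcm6. They were picked by reading the 53 without a count, so the 4 listed genes are not all of this kind. For Mki67 and Ube2c the iWAT members with a Cxcl10 UMI were not below the other mesenchymal cells, which had 108 and 272 CPM. In iBAT such members stayed below the other mesenchymal cells for Mki67. Both genes were picked for their rise in this split, and the rest of the cell cycle list was not compared. Apod, a lipid-binding secreted protein on no list, was at 50.2 against 14.4 CPM and 113 against 28.1 CPM. The cells with a Cxcl10 UMI were deeper and had more of the selecting genes, 2434 against 1208 CPM in iWAT and 2070.3 against 859 CPM in iBAT, and the part of depth in this split was not tested.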

How the data were processed

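Single-cell RNA was captured on BD Rhapsody cartridges, with 1 library of merged, tagged cultures for iWAT and 1 for iBAT. The deposited matrices hold UMI counts per gene and cell, which the authors produced on a cloud platform. The labels name build mm39 and Seurat 5.0.0, and the treatment of reads that match several genes is not given in the sources used here. Raw counts were used as deposited.

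Cells with more than 200 and fewer than 7500 genes and under 30% mitochondrial UMIs were kept (29744 of 29962 in iWAT, 28215 of 28636 in iBAT). The 152 and 243 members had 2842499 and 6671954 UMIs in all, and the other mesenchymal cells 281021443 and 689153067. UMIs were summed over members and over the other mesenchymal cells of each library and scaled to CPM, and no test was made, since each depot is 1 library. Sums carry exact Poisson intervals, ratios exact conditional (Clopper-Pearson) intervals and shares exact binomial intervals, all 95% and covering counting error only. A gene was counted as higher or lower at 4-fold, and at 2-fold, if it was listed in both libraries and had at least 2 CPM over the mesenchymal cells of each. Ifit1, Ifit3, Mx1 and the copies Ifit3b, Ifit1bl1, Ifit1bl2 and Mx2 were left out.

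Genes named are the 30 with the largest smaller-of-2 log2 ratio, the 10 lowest in both, the 10 whose ratio differed most between the libraries at 10 CPM or more, and genes of 23 lists. Any other was chosen after its values were seen. The members and lists were chosen with earlier results of these data known. For shares of cells with a UMI each cell was thinned to 10000 UMIs. Scrublet in scanpy 1.11.5, at an assumed rate of 0.08, marked 561 iWAT cells. Its automatic threshold marked 0 iBAT cells, so the iWAT threshold of 0.423 was used there and marked 398. Doublets were counted but not removed. Promoter motifs were searched in the RefSeq table of build GRCm38.p6, joined to the counts by gene symbol. Alternatives covered the share of cells selected, filters, doublets, scaling, thinning, the mesenchymal definition, the comparison cells and the motif. The code was tested on simulated data. Python 3.11.15, numpy 2.4.6, scipy 1.17.1 and pandas 2.3.3 were used. One listed gene is not reported here.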

Additional observations from a re-analysis of the deposited data

Results flagged for a closer look

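Cells outside the mesenchymal class also reached the members' limit of their library, which lies in cells that the comparisons did not use. In iWAT these were 53 of 6333 cells with an Epcam UMI (0.837%, 95% interval 0.627 to 1.09), 4 of 187 with Ptprc (2.14%, 0.586 to 5.39), 5 of 364 with Pecam1 (1.37%, 0.447 to 3.18), 30 of 2887 with Sox10 (1.04%, 0.702 to 1.48) and 73 of 7300 with neither Pdgfra nor any of the 4 genes (1.00%, 0.785 to 1.26). In iBAT they were 11 of 947 cells with Pecam1 (1.16%, 0.581 to 2.07), 12 of 1138 with Sox10 (1.05%, 0.546 to 1.83) and 12 of 1471 with none of these genes (0.816%, 0.422 to 1.42). By rule 1% of the mesenchymal cells reach the limit, and each of these intervals includes 1%. The classes above were flagged because their counts lay above the 3 cells that a count of 0 allows, which depends on class size. In iBAT 0 of 111 cells with Epcam (95% interval 0 to 3.27) and 3 of 296 with Ptprc (1.01%, 0.210 to 2.93) were not flagged. Their intervals include 1% as well.

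The genes Igfbp2, Myh11 and Tac1 were 2-fold or more higher in the members of one library and 2-fold or more lower in those of the other, and the difference was not tested. For Igfbp2, which binds insulin-like growth factors, the log2 ratio was 2.67 higher in iBAT than in iWAT, with 7 member UMIs in iWAT and 118 in iBAT, of which 1 cell held 46.6%. For Myh11, the smooth muscle myosin, it was 3.21 higher in iBAT, with 2 and 46 member UMIs. For Tac1, the precursor of substance P, the difference of iBAT minus iWAT was -2.69, with 20 member UMIs in iWAT, of which 1 cell held 40%, and 6 in iBAT.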

How the results depend on the processing

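No paired analysis was possible because each depot is 1 library and no test was made, and for the same reason no replicate could be left out. Of the summary values recomputed under the alternatives 160 stayed close to the value reported and 64 moved. Each of the 30 genes highest in both libraries was 2-fold or more higher in both under every alternative tried for ratios, and 9 to 30 of them were at 4-fold or more in both, against 29 as reported. With the top 0.5% of cells 65 genes were 4-fold higher in iWAT and 46 in both, 85, 32 and 4 were lower in iWAT, iBAT and both, so that lower genes outnumbered higher ones in iWAT, and 18 antiviral effectors were higher in iWAT. Cxcl10 was then seen in 69.6% and 27.05% of members and Rsad2 in 78.3% and 32.8%. With the top 2%, 1 gene was lower in iWAT and 6 in iBAT, 0 and 1 MHC class I genes were higher, and the shares were 32.4% and 7.20% for Cxcl10 and 39.15% and 8.85% for Rsad2. The stricter mesenchymal definition gave 61, 27 and 3 lower genes, and thinning before selection 60, 29 and 3. At least 10 CPM (8139 genes) left 12, 32 and 11 higher and 0, 3 and 0 lower genes, with 4 and 14 antiviral effectors, 3 and 5 GTPases and 1 and 3 sensors. Without a filter (15546 genes) 357, 226 and 139 were higher and 55, 79 and 0 lower, with 16 antiviral effectors in iWAT, 16 and 17 GTPases and 3 MHC class I genes in iWAT.

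Alternatives without the 10 highest members and with the other library's limit were chosen after seeing the data. Without the 10 members of highest score 0 MHC class I genes were 4-fold higher in iWAT. With the limit of the other library 10 genes were higher in iWAT and 10 in both, 0, 49 and 0 were lower, and 3 antiviral effectors, 0 sensors and 0 MHC class I genes were higher in iWAT. The shares were then 19.4% in iWAT and 30.6% in iBAT for Cxcl10 and 30.2% and 31.6% for Rsad2. These values set iWAT at the lower limit beside iBAT at the higher one. At either common limit iWAT had the higher share of both genes. Thinned to 5000 UMIs, Rsad2 was seen in 45.4% and 11.5% of members, and without thinning in 28.4% in iBAT. The ISRE with one more base, a C at its end, was present for 29.2% of the shared genes and 0.921% of all that passed. The cause of these moves was not tested, apart from the number of genes tested under each filter. The 10 genes lowest in both libraries rest on 0 to 18 member UMIs each.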
